A study of Mus musculus with 8 samples.

Results

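The 9 genes examined here carry high-energy phosphate through the heart muscle cell: the creatine kinases Ckm, Ckb, Ckmt1 and Ckmt2, the creatine transporter Slc6a8, the creatine-synthesising enzyme Gamt, the ADP/ATP carriers Slc25a4 and Slc25a5, and the adenylate kinase Ak1. They were matched by gene symbol, ignoring case, in the values of all 8 hearts. Where a symbol named several loci, the locus with the highest mean was taken. All 9 were found among 39614 loci that carry a symbol, of 80155 loci in all. RNA-seq compared whole hearts of 4 male Hsd:ICR(CD-1) mice at postnatal day 1 (P1) with those of 4 male mice of the same outbred stock at postnatal day 7 (P7), with the atrial appendages removed and 1 library per animal. No transgene or treatment is labelled, and age is the only labelled difference. The comparison asked which transcripts differ between the day when the mouse heart can still regenerate and the day when this capacity is lost. The unit is FPKM, the fragments of a locus relative to its transcript length and to the total mapped in that library, and the number of fragments behind each value is unknown.

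Mitochondria make ATP in the matrix, and the ADP/ATP carriers of the inner membrane exchange it for ADP from the cytosol. Mitochondrial creatine kinase in the space between the membranes passes the phosphate to creatine, and cytosolic creatine kinase at the myofibril and the calcium pump uses the phosphocreatine to rebuild ATP. Adenylate kinase does the same work by turning ADP into ATP and AMP. In the developing heart this shuttle is known to mature after birth, together with the mitochondria and the sarcomeres.

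Of the 9 genes, 3 were differentially expressed and all 3 were higher in P7: Ckmt2, the mitochondrial creatine kinase of striated muscle, Slc6a8 and Gamt. A locus was called differentially expressed with a Benjamini-Hochberg adjusted p under 0.05 from limma, fitted to log2(FPKM + 1) over all loci, when its mean FPKM also differed 1.5-fold or more. Among the other genes Ckm, Ckb, Slc25a4, Slc25a5 and the locus that holds Ak1 did not pass, and Ckmt1 stayed under 1 FPKM in every heart and was not tested. Over all 17960 annotated loci tested, 8.14% were called, 7.74% as higher and 0.401% as lower in P7. That share includes loci low in most hearts, whereas all 8 tested loci of the 9 genes reached 1 FPKM in every heart. In a fit of loci with at least 1 FPKM in every heart, 2573 of 12730 annotated loci were called. Of the 9 genes, 4 were called in that fit. The median log2 fold change of the 8 loci tested was 0.77, against 0.19 over all annotated loci tested. That median of all annotated loci was -0.01 after median-ratio scaling. This scaling evens out the overall level of each heart and brings that median near 0 by construction. In the values without it, a log2 fold change near 0.19 was the middle of all annotated loci tested. Calls over all annotated loci depended on single hearts. Without P1 replicates 1 to 4 in turn, 820 of 17840, 167 of 17856, 425 of 17796 and 2835 of 17671 were called. Without P7 replicates 1 to 4 in turn, 298 of 17733, 1012 of 17860, 278 of 17771 and 725 of 17854 were called. The count of called genes among the 9 moved with these numbers. It was 0 when P1 replicate 2, P1 replicate 3, P7 replicate 1 or P7 replicate 3 was left out, 1 when P1 replicate 1 or P7 replicate 4 was, 3 in the case of P7 replicate 2 and 4 in that of P1 replicate 4.

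**Figure D1:**
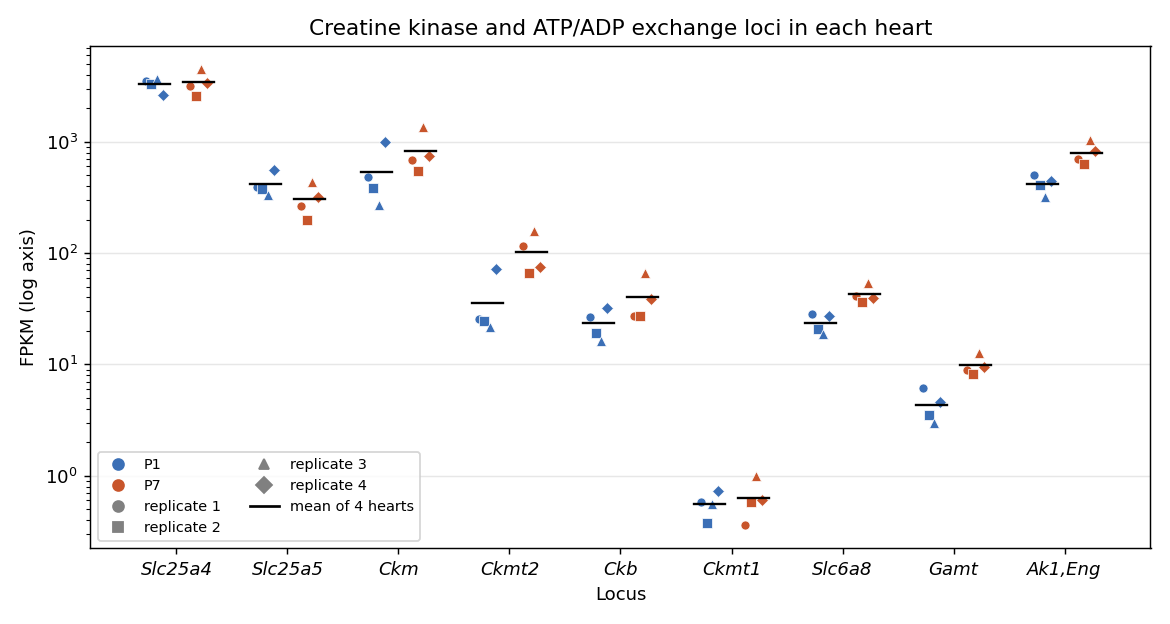
FPKM of the 9 loci in each heart on a log axis; each point is 1 heart, blue for P1 and orange for P7, the marker shape gives the replicate, and the black line is the mean of 4 hearts. Slc25a4 lies between 2589 and 4529 FPKM in all 8 hearts, and Ckmt1 lies under 1 FPKM. For Slc6a8, Gamt and the Ak1,Eng locus every P7 heart lies above every P1 heart, as for 17.3% of all annotated loci tested.

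The levels spanned more than 3 orders of magnitude on the FPKM scale, which is already divided by transcript length. In P1, Slc25a4 stood highest with a mean of 3293 FPKM, above Ckm (533 FPKM) in 4 of 4 hearts. Ckm, the Ak1 locus (419 FPKM) and Slc25a5 (416 FPKM) followed with overlapping ranges. Ckm exceeded the Ak1 locus in only 1 of 4 P1 hearts, replicate 4. Ckmt2 (35.8 FPKM), Slc6a8 (23.7 FPKM) and Ckb (23.6 FPKM) formed the next group, in which neighbours overlapped too. Gamt (4.29 FPKM) and Ckmt1 (0.561 FPKM) came last and were set apart from their neighbours in every heart. The order of the means was the same in P7, where Ckm again exceeded the Ak1 locus in only 1 of 4 hearts, replicate 3. There, however, the Ak1 locus stood clear of Slc25a5 and Ckmt2 stood clear of Slc6a8, each in 4 of 4 hearts and with no overlap of the ranges.

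Ckm encodes the muscle creatine kinase, the main cytosolic form of striated muscle. Its locus lies at chr7:19410990-19421583 (GRCm38). It was at 482, 385, 268 and 995 FPKM in P1 replicates 1 to 4 and at 681, 543, 1352 and 738 FPKM in P7 replicates 1 to 4. The stages overlapped, since P1 replicate 4 exceeded all P7 hearts but replicate 3. The mean was 533 ± 321 FPKM in P1 and 828 ± 358 FPKM in P7 (SD, n = 4 each). The log2 fold change was 0.72 ± 0.38 (SE) with a 95% interval from -0.11 to 1.56, and the adjusted p of limma was 0.333. Ckm passed under none of 23 alternative settings.

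Ckb is the creatine kinase of brain and many other tissues, and the form that prevails in the early embryonic heart. The locus, at chr12:111669355-111672338, read 26.8, 19.0, 16.4 and 32.2 FPKM in the P1 hearts and 27.5, 27.4, 66.3 and 38.9 FPKM in the P7 hearts. P7 replicate 3 was the highest of the 8, and P1 replicate 4 lay among the P7 values. Mean Ckb was 23.6 ± 7.25 FPKM in P1 and 40.0 ± 18.3 FPKM in P7 (SD, n = 4 each). With a log2 fold change of 0.69 ± 0.30 (SE), the unadjusted 95% interval ran from 0.05 to 1.33, but the adjusted p of limma was 0.24. Over 23 alternatives the log2 fold change ranged from -0.05 to 0.85 and did not pass once. Its sign turned with GC correction combined with median-ratio scaling. Processed copies of Ckb are annotated in the mouse genome, and how reads shared with them were counted is not given in the sources used here.

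The ratio of Ckm to Ckb within each heart cancels any scale common to the library. It was 18.0, 20.3, 16.3 and 30.9 in P1 and 24.8, 19.8, 20.4 and 19.0 in P7. All P7 ratios lay within the range of the P1 ratios. The geometric mean was 20.7 in P1 and 20.9 in P7, and the difference of 0.01 on the log2 scale gave p = 0.943 in a two-sided exact permutation test (adjusted p = 0.943 over 3 ratios). Shifts between -0.70 and 0.59 on the log2 scale were not rejected by this test at 0.05, so a change of the ratio by 1.5-fold in either direction could not be told from none. Without P1 replicate 4 the difference was 0.20 and without P1 replicate 3 it was -0.10, so its sign rested on single hearts. The largest move came with GC correction, to 0.28 (exact permutation p = 0.171, two-sided), and Ckb is the member richest in GC.

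Ckmt2 sits at chr13:91853387-91876885. Its FPKM was 25.6, 24.5, 21.9 and 71.3 in the P1 hearts, and 115, 66.4, 157 and 75 in the P7 hearts. P1 replicate 4 was well above the other 3 P1 hearts and above P7 replicate 2, and it made the only overlap. The mean rose from 35.8 ± 23.7 to 103 ± 41.4 FPKM (SD, n = 4 each), a 2.88-fold ratio. The log2 fold change was 1.59 ± 0.37 (SE), with a 95% interval from 0.80 to 2.39 and an adjusted p of 0.0345 by limma. Without P1 replicate 4 it was 1.98 (adjusted p = 0.0044, limma). The call was lost without P1 replicate 1 (adjusted p = 0.0763, limma), P1 replicate 2 (0.11), P1 replicate 3 (0.0954), P7 replicate 1 (0.0947) or P7 replicate 3 (0.0979), while the log2 fold change stayed between 1.37 and 1.98 in all 8 such fits. Correction for GC content left it at 1.59, with an adjusted p of 0.0564 (limma). The call was kept in 15 of 23 alternative settings.

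The second mitochondrial form, Ckmt1, is known from brain, gut and kidney. At chr2:121357714-121387168 it was listed at 0.585, 0.373, 0.563 and 0.723 FPKM in P1 and at 0.358, 0.581, 0.993 and 0.610 FPKM in P7. The stages overlapped fully (exact permutation test on log2 values, two-sided p = 0.657). The span of this locus also covers Strc, a gene of the inner ear, in the GENCODE M21 annotation. Whether the listed fragments came from Ckmt1 was not tested.

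Ckmt2 also stood higher relative to Ckm. The ratio of Ckmt2 to Ckm was 0.0532, 0.0635, 0.0818 and 0.0716 in P1 and 0.168, 0.122, 0.116 and 0.102 in P7. Every P7 heart exceeded every P1 heart, and the geometric mean was 0.0667 in P1 and 0.125 in P7, 1.87-fold higher. The difference of 0.90 on the log2 scale had an exact permutation p of 0.0286 (two-sided), the smallest that 4 hearts against 4 allow. Its adjusted p was 0.0857 over the 3 ratios, so it did not pass the adjustment. It could not have passed unless another ratio also reached the smallest p. After quantile normalization the adjusted p was 0.0429, because the carrier ratio then reached the smallest p too. The difference stayed between 0.76 and 1.00 when any 1 heart was left out. Expressed as a share of the summed FPKM of the 4 creatine kinases, Ckmt2 made up 4.79% to 7.14% in P1 and 8.79% to 13.9% in P7, while Ckm made up 87.3% to 90.5% in P1 and 82.7% to 86.6% in P7. Ckb held 2.93% to 5.35% and 3.34% to 4.57%, and Ckmt1 never more than 0.184%.

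**Figure D2:**
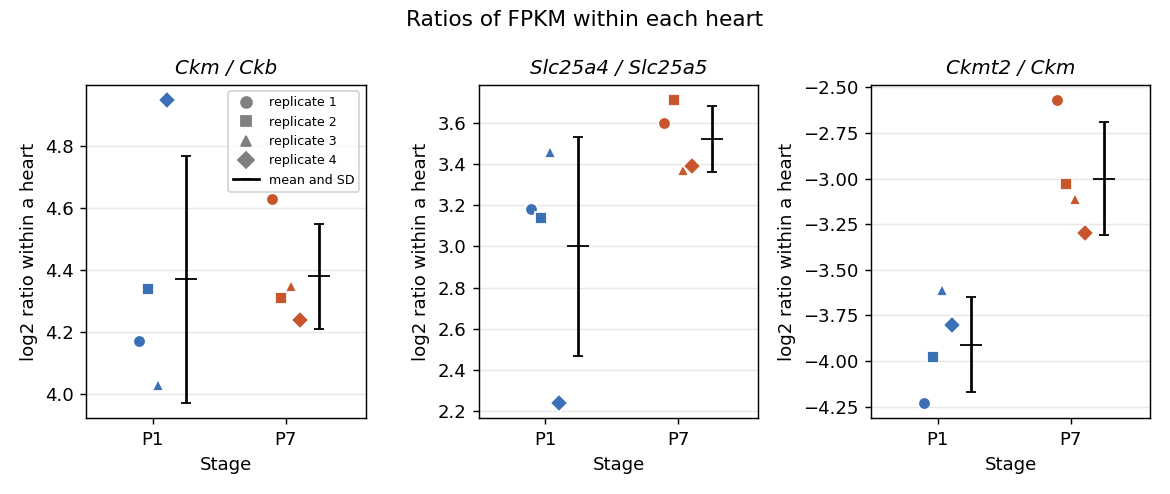
Ratios of FPKM within each heart on the log2 scale (a different range in each panel); points are hearts, the marker shape gives the replicate, and the bars show the mean and SD of 4 hearts. The Ckm to Ckb ratio overlaps between stages, the Slc25a4 to Slc25a5 ratio is low in P1 replicate 4 (4.71), and the lowest P7 value of the Ckmt2 to Ckm ratio (0.102) lies above the highest P1 value (0.0818).

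The 250 bases before the annotated start of the 3 creatine kinase genes above 1 FPKM are shown, since these genes enter the ratios above. The sequences are those of RefSeq on GRCm38.p6, and 8 of the 9 genes had an entry. They read 5′ to 3′ on the gene's strand, which is the plus strand for Ckm (chr7:19410844-19411093) and the minus strand for Ckb (chr12:111672339-111672588) and Ckmt2 (chr13:91876886-91877135). Capitals mark matches on either strand to the E-box CANNTG, to its form CAGCTG that is common at muscle genes and is itself an E-box, to the ERR half-site AAGGTCA, to TATAAA and to CCAAT.
Ckm: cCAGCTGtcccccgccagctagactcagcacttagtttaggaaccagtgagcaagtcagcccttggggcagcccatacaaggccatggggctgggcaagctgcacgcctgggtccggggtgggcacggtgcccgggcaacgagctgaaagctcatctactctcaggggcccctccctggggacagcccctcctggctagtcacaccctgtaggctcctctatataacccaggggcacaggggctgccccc
Ckb: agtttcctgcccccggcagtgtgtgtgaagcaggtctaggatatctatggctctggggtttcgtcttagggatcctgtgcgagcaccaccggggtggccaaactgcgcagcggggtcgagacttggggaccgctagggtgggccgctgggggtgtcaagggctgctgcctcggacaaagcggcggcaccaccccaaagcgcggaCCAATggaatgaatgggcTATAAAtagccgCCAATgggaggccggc
Ckmt2: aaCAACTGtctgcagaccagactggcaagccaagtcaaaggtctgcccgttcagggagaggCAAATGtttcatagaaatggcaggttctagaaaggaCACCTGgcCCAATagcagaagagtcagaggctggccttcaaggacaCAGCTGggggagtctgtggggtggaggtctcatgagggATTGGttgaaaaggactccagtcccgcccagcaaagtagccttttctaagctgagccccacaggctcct
The Ckmt2 window held 4 E-boxes, with their first bases 248, 189, 153 and 107 bases before the start, of which the last was CAGCTG. It also held 2 CCAAT matches, at 145 and 69 bases. In the Ckm window the single match was a CAGCTG at 249 bases, near its far end. Ckb held no E-box, but TATAAA at 28 bases and CCAAT at 46 and 16 bases before the start. Of 32851 windows of the same length, 66.2% held CANNTG, 13% CAGCTG, 4.08% AAGGTCA, 12.4% TATAAA and 33.8% CCAAT. The GC content was 64.8% for Ckm, 62.8% for Ckb and 54% for Ckmt2. These matches describe letters only and were not tested for binding.

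Both genes of creatine supply among the 9 were higher in P7. Slc6a8, the sodium-coupled transporter that takes up creatine, lies at chrX:73673150-73682502. It was at 28.3, 20.7, 18.9 and 27.1 FPKM in the P1 hearts and 40.9, 36.1, 53.9 and 39.2 FPKM in the P7 hearts. Every P7 heart lay above every P1 heart, as did 17.3% of all annotated loci tested. The mean rose from 23.7 ± 4.65 to 42.5 ± 7.84 FPKM (SD, n = 4 each), 1.79-fold, with a log2 fold change of 0.82 ± 0.20 (SE), a 95% interval from 0.38 to 1.26 and an adjusted p of 0.0455 by limma. This call lay close to the threshold and was kept in 7 of 23 alternative settings. It held without P1 replicate 4 (adjusted p = 0.0255, limma) and was lost without any other heart: without P1 replicate 1 (adjusted p = 0.0642, limma), P1 replicate 2 (0.158), P1 replicate 3 (0.105), P7 replicate 1 (0.108), P7 replicate 2 (0.0536), P7 replicate 3 (0.129) and P7 replicate 4 (0.0902). The log2 fold change was 0.56 after median-ratio scaling, where the ratio fell short of 1.5, 0.46 after GC correction (adjusted p = 0.259, limma) and 0.20 with both (0.319).

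Gamt, which methylates guanidinoacetate in the last step of creatine synthesis, lies at chr10:80257284-80261012. It read 6.09, 3.52, 2.97 and 4.6 FPKM in P1 and 9, 8.25, 12.6 and 9.49 FPKM in P7. No P1 heart reached the lowest P7 heart, as in 17.3% of all annotated loci tested. From 4.29 ± 1.37 FPKM the mean rose to 9.83 ± 1.91 FPKM (SD, n = 4 each), 2.29-fold. The log2 fold change was 1.05 ± 0.22 (SE), with a 95% interval from 0.58 to 1.53 and an adjusted p of 0.0241 by limma. The adjusted p of limma was 0.0913 without P1 replicate 2, 0.0639 without P1 replicate 3, 0.0652 without P7 replicate 1, 0.078 without P7 replicate 3 and 0.0517 without P7 replicate 4, so the call was lost in these 5 fits and held in the other 3. Over all 23 alternative settings the call was kept in 13. With GC correction the log2 fold change was 0.61 (adjusted p = 0.181, limma), and with median-ratio scaling added it was 0.37 (0.2). A second locus with the same symbol and span was listed at 0.500 to 1.72 FPKM and did not enter. Gatm, the enzyme of the preceding step, was at 5.32 ± 1.08 FPKM in P1 and 7.22 ± 1.68 FPKM in P7 (SD, n = 4 each), with a log2 fold change of 0.37, a 95% interval from -0.08 to 0.83 and an adjusted p of 0.354 by limma.

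The loci differed in base composition, and GC correction changed several of these log2 fold changes. For the Ak1 locus the GC content given next is the mean over the longest transcripts of Ak1 and Eng. The GC content of the longest annotated transcript was 61.7% for Ckb, 59.7% for Gamt, 56.8% for Slc6a8, 55.9% for the Ak1 locus, 54% for Ckm, 51.8% for Slc25a4, 50.5% for Ckmt2 and 48.6% for Slc25a5, against a median of 49.2% over annotated loci tested. The log2 fold changes of the 3 loci richest in GC fell most with GC correction, Ckb from 0.69 to 0.22, Gamt from 1.05 to 0.61 and Slc6a8 from 0.82 to 0.46, while that of Ckmt2 stayed at 1.59. The correction subtracts a trend on GC content, so how far a locus moves is set by its GC content by construction. Whether base composition had a part in any stage difference was not tested.

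The ADP/ATP carriers did not pass the test in either direction. Slc25a4, the carrier of heart and skeletal muscle, at chr8:46206797-46211284, was at 3534, 3302, 3683 and 2655 FPKM in P1 and at 3183, 2589, 4529 and 3343 FPKM in P7. The ranges overlapped, with P7 replicate 3 highest and P7 replicate 2 lowest. The mean was 3293 ± 453 FPKM in P1 and 3411 ± 813 FPKM in P7 (SD, n = 4 each), and the log2 fold change of 0.03 had a 95% interval from -0.52 to 0.59 (adjusted p = 0.947, limma). Its sign was not settled: it was -0.23 with median-ratio scaling, -0.15 with annotated-total scaling and -0.11 without P7 replicate 3.

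Slc25a5, the carrier of dividing and many other cells, at chrX:36795651-36798807, read 391, 376, 334 and 563 FPKM in P1 and 263, 198, 438 and 319 FPKM in P7. P7 replicate 3 exceeded 3 of the 4 P1 hearts, and the other 3 P7 hearts lay below every P1 heart. The mean was 416 ± 101 FPKM in P1 and 304 ± 102 FPKM in P7 (SD, n = 4 each). The log2 fold change was -0.48 ± 0.27 (SE), with a 95% interval from -1.06 to 0.10 and an adjusted p of 0.353 by limma. It was negative under all 23 alternatives and passed under 1, median-ratio scaling, with a log2 fold change of -0.74 (adjusted p = 0.0404, limma). A transcribed processed copy of this gene is annotated, and how shared reads were assigned is not given in the sources used here.

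Within each heart the ratio of Slc25a4 to Slc25a5 was 9.03, 8.79, 11 and 4.71 in P1 and 12.1, 13.1, 10.3 and 10.5 in P7. P1 replicate 4 had the lowest ratio, and P1 replicate 3 lay among the P7 hearts. The geometric mean was 8.02 in P1 and 11.4 in P7. The difference of 0.51 on the log2 scale did not pass (exact permutation p = 0.0857, two-sided; adjusted p = 0.129 over 3 ratios), and shifts from -0.09 to 1.47 were not rejected. Without P1 replicate 4 the difference was 0.26. After quantile normalization it was 0.70 with an adjusted exact permutation p of 0.0429. Slc25a4 made up 82.5% to 91.7% of the summed FPKM of both carriers in P1 and 91.2% to 92.9% in P7, and the sum itself was 3710 ± 357 FPKM in P1 and 3716 ± 914 FPKM in P7 (SD, n = 4 each).

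Ak1, the cytosolic adenylate kinase of muscle, was listed only in a merged locus with Eng at chr2:32621758-32704137. Eng encodes endoglin, a receptor of endothelial cells, and the value cannot be assigned to either gene. The merged locus was at 501, 411, 317 and 447 FPKM in P1 and at 697, 626, 1035 and 819 FPKM in P7, with every P7 heart above every P1 heart. The mean was 419 ± 77.3 FPKM in P1 and 794 ± 179 FPKM in P7 (SD, n = 4 each), a 1.89-fold ratio. Its log2 fold change of 0.91 ± 0.24 (SE) had a 95% interval from 0.40 to 1.42 and an adjusted p of 0.0517 by limma, just short of the threshold. It passed without P1 replicate 4 (adjusted p = 0.0428, limma) or P7 replicate 2 (0.0469), and when only annotated loci were tested (0.0202). With GC correction and median-ratio scaling together the log2 fold change was 0.33. The summed level of 4 endothelial markers was 58.6 to 110 FPKM in P1 and 91.1 to 143 FPKM in P7, with 1 of the 4, the junction protein Cdh5, called higher (22.8, 20.4, 16.3 and 31.6 FPKM against 49.6, 36.0, 54.7 and 39.0 FPKM, adjusted p = 0.0376, limma). The part of endothelial RNA in the value of the merged locus was not tested.

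**Figure D3:**
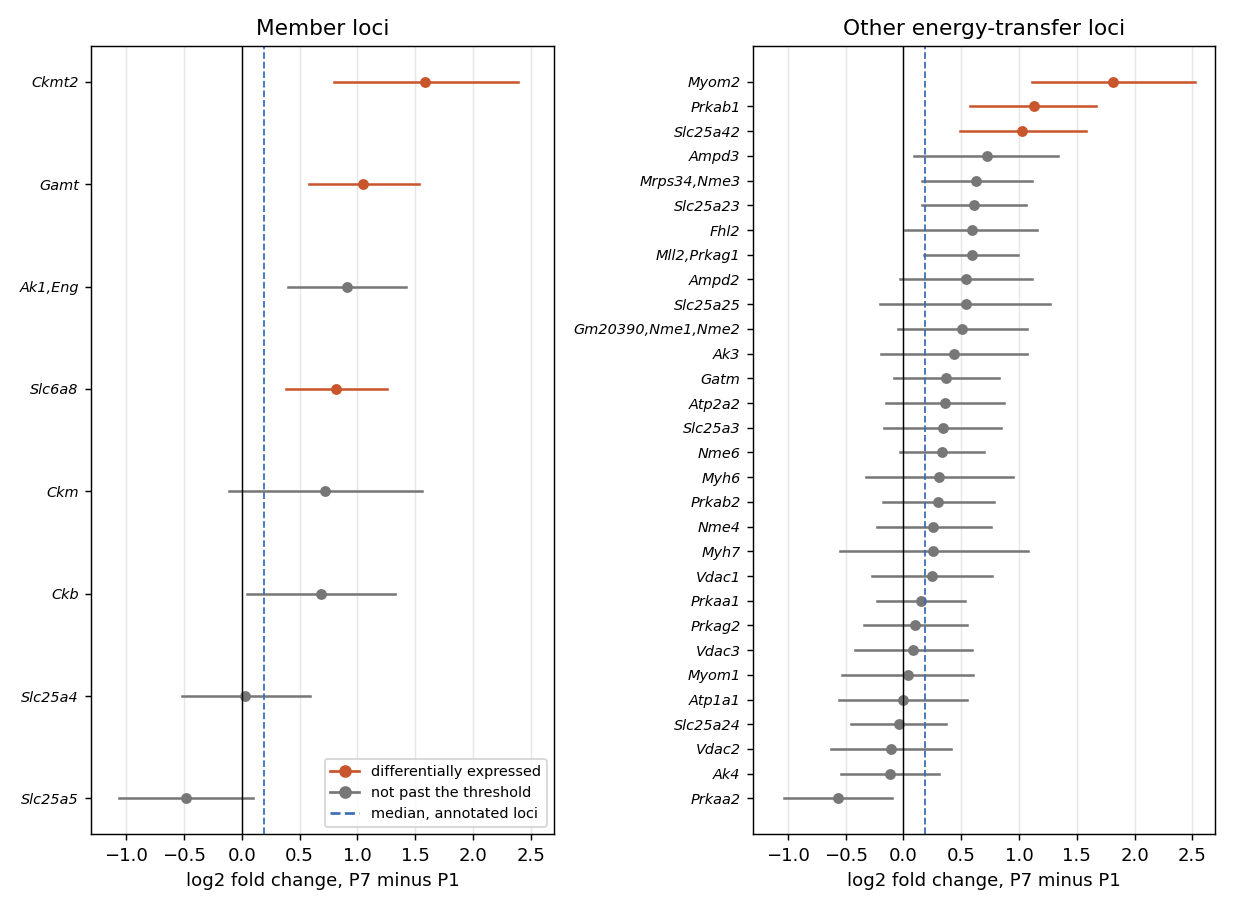
Log2 fold changes (P7 minus P1, on the log2(FPKM + 1) scale) of the 8 member loci tested and of 30 other energy-transfer loci; points are estimates, lines their unadjusted 95% intervals, orange marks differentially expressed loci, and the dashed line is the median of annotated loci (0.19). Ckmt2 (1.59) and Myom2 (1.81) lie farthest to the right.

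A further list of 42 genes of energy transfer had 40 genes with a locus, of which 33 reached 1 FPKM in a heart, on 32 separate loci. Of the 32, 4 rose and 0 fell by limma, and 28 did not pass, beside 8.14% called over all annotated loci tested. At an unadjusted p under 0.05, 9 loci were higher in P7 and 1 was lower (Prkaa2). When only annotated loci were fitted, 5486 of 17960 had an unadjusted p under 0.05 (limma), in either direction. Their median log2 fold change was 0.34, and 27 of the 32 were above 0, beside 67.6% of all annotated loci tested. Over all annotated loci, 167 of 17856 were called without P1 replicate 2 and 298 of 17733 without P7 replicate 1. Without P1 replicate 3 and P7 replicate 3 in turn, 425 of 17796 and 278 of 17771 were called. Without P1 replicate 1, P7 replicate 2 and P7 replicate 4 in turn, the calls were 820 of 17840, 1012 of 17860 and 725 of 17854. Without P1 replicate 4 they were 2835 of 17671. Of the 32 loci, the number called without any 1 heart lay between 0 and 4. It was 0 without P1 replicate 2 or P7 replicate 1, 1 without P1 replicate 3 or P7 replicate 3, and 2 when P1 replicate 1, P7 replicate 2 or P7 replicate 4 was left out.

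Of the 4 that rose, 3 are described. In each of these 3 every P7 heart lay above every P1 heart, as in 17.3% of all annotated loci tested. Myom2, an M-band protein of the sarcomere, where muscle creatine kinase is known to bind, was at 39.3, 33.4, 21.4 and 67.1 FPKM in P1 and 203, 108, 146 and 97.6 FPKM in P7. The stages did not overlap, with a log2 fold change of 1.81 ± 0.33 (SE) and an adjusted p of 0.015 (limma), which was 0.0541 without P1 replicate 2 and 0.0501 without P7 replicate 1. Its relative Myom1 was at 109 ± 38.1 and 109 ± 25 FPKM (SD, n = 4 each) and did not pass.
Prkab1, a regulatory subunit of the AMP-activated kinase, was at 6.97, 4.8, 3.44 and 9.72 FPKM in P1 and 16, 13.1, 14.1 and 12.8 FPKM in P7, again without overlap. The log2 fold change was 1.13 ± 0.25 (SE) with an adjusted p of 0.0312 (limma), and the call was kept in 12 of 23 alternatives (adjusted p from 0.00643 to 0.122). It was lost without P1 replicate 2 (0.107), P1 replicate 3 (0.0691), P7 replicate 1 (0.091), P7 replicate 2 (0.052), P7 replicate 3 (0.0808) or P7 replicate 4 (0.0561). Prkaa2, the catalytic subunit of muscle, was at 37.9 ± 8.88 FPKM in P1 and 25.2 ± 5.06 FPKM in P7 (SD, n = 4 each), and with an adjusted p of 0.181 it did not pass.
Slc25a42, a mitochondrial carrier of coenzyme A and adenine nucleotides, was at 10.1, 7.33, 4.69 and 11 FPKM in P1 and 17.6, 22.8, 13.7 and 16.1 FPKM in P7. The stages did not overlap, the log2 fold change was 1.03 ± 0.25 (SE) and the adjusted p was 0.0416 (limma). This was the least stable of these 3, kept in 8 of 23 alternatives (0.00952 to 0.283). Of the fits without 1 heart it held only without P1 replicate 4, with adjusted p of 0.0532, 0.127 and 0.0886 without P1 replicates 1, 2 and 3, and of 0.103, 0.091, 0.069 and 0.075 without P7 replicates 1 to 4.

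The 3 loci of the list with the highest mean among those that did not pass were Myh6, Atp2a2 and the merged locus of Gm20390, Nme1 and Nme2. Myh6, the motor of the adult mouse heart, was at 3395, 3149, 2533 and 5502 FPKM in P1 and 4647, 3248, 5299 and 4433 FPKM in P7 (log2 fold change 0.31, 95% interval from -0.32 to 0.95). Atp2a2, the calcium pump of the sarcoplasmic reticulum, was at 1969, 2023, 1908 and 1324 FPKM in P1 and 2254, 2151, 2603 and 2170 FPKM in P7. Its P7 hearts all lay above its P1 hearts, as in 17.3% of all annotated loci tested. The log2 fold change of 0.36, however, had a 95% interval from -0.15 to 0.87. The Nme1 and Nme2 locus, of nucleoside diphosphate kinases that pass phosphate from ATP to other nucleotides, was at 564, 428, 483 and 449 FPKM in P1 and 670, 457, 1059 and 664 FPKM in P7, with a log2 fold change of 0.51 and a 95% interval from -0.05 to 1.07. None of the 3 mitochondrial outer membrane channels Vdac1, Vdac2 and Vdac3 passed, with log2 fold changes from -0.11 to 0.25. The same was true of the adenylate kinases Ak3 and Ak4, at 0.44 and -0.12, and of the phosphate carrier Slc25a3, at 389 ± 71.7 FPKM in P1 and 495 ± 113 FPKM in P7 (SD, n = 4 each; log2 fold change 0.34). Ak5, Ak7, Ak8, Slc25a31, Slc25a41, Ampd1 and Prkag3 stayed under 1 FPKM in every heart, and no locus carried the symbol Ak6 or Ak9.

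Hearts of one stage differed in level, often for several of the 9 genes in the same heart. P7 replicate 3 was the highest of the 8 hearts for 8 of the 9 genes, and it also had the highest median-ratio factor (1.3, against 0.779 to 1.17 in the other 7 hearts). How many of all annotated loci were highest in P7 replicate 3 was not counted. P1 replicate 4, with a factor of 1.16, was the highest P1 heart for Ckm, Ckb, Ckmt1, Ckmt2 and Slc25a5 and the lowest for Slc25a4. For Slc6a8, Gamt and the Ak1 locus the highest P1 heart was replicate 1. The coefficient of variation among P1 hearts was 60.2% for Ckm and 66.1% for Ckmt2, but 13.8% for Slc25a4 and 19.6% for Slc6a8. In P7 it was 43.3% and 40.1% for the first pair and 23.8% and 18.4% for the second. Unannotated loci held 33.1% to 72.7% of the summed FPKM of a heart, and FPKM is relative to all fragments.

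**Figure D4:**
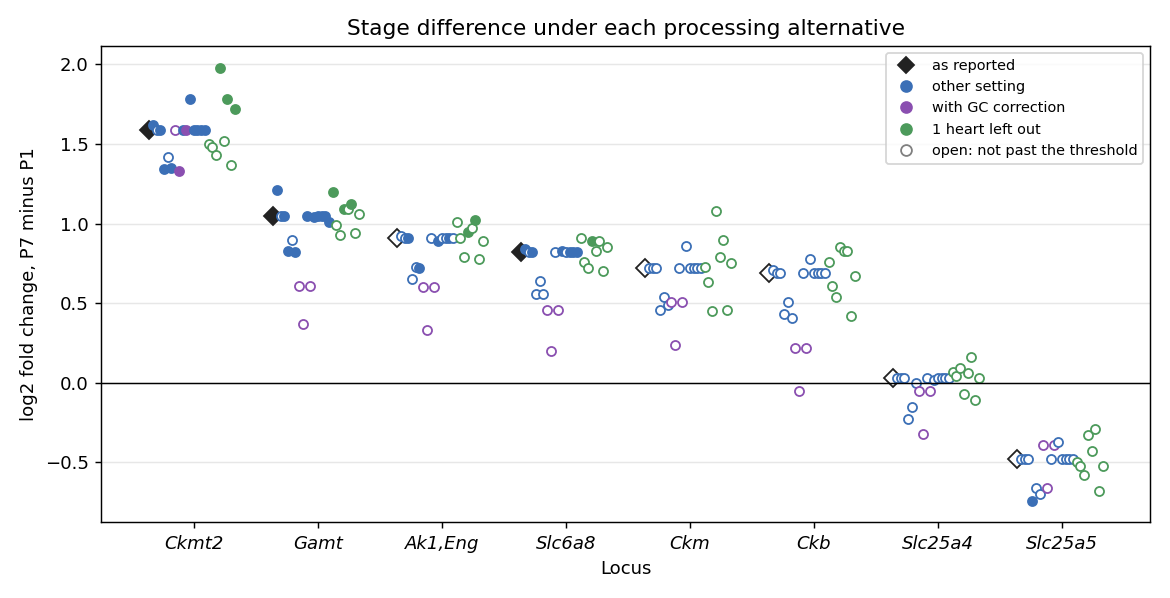
Log2 fold change (P7 minus P1) of the 8 tested loci under the reported setting (black diamond) and 23 alternatives (circles: blue for other settings, purple for GC correction, green for 1 heart left out); filled symbols passed both thresholds and open symbols did not. Ckmt2 stays between 1.33 and 1.98, and Slc25a4 lies on both sides of 0.

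The cell types of the heart were checked with marker lists, since in whole hearts fewer cells of a type and less RNA per cell cannot be told apart. The summed level of 6 ventricular cardiomyocyte markers was 16773 to 28763 FPKM in P1 and 20578 to 31682 FPKM in P7, with 0 of 6 called by limma (at an unadjusted p under 0.05, 2 were higher, Tnnt2 and Tnni3). For comparison, 5486 of 17960 loci had such an unadjusted p, in either direction, when only annotated loci were fitted. Of 6 skeletal muscle markers with a locus, which matter because that tissue is rich in Ckm, Myh1, Myh4 and Actn3 were under 1 FPKM in every heart, and the sum was 4.23 to 10.2 FPKM in P1 and 4.10 to 8.61 FPKM in P7. The sum of 4 fibroblast markers was 377 to 690 FPKM in P1 and 879 to 1068 FPKM in P7 (2 of 4 called higher), that of 4 leukocyte markers 15.4 to 21.2 and 34.0 to 46.5 FPKM (1 of 4 called higher), and that of 4 smooth muscle markers 251 to 529 and 132 to 247 FPKM (1 of 4 called lower). The sum of 3 brown fat markers was 8.30 to 16.2 FPKM in P1 and 20.6 to 37.9 FPKM in P7, with Cidea called higher and Ucp1, which defines this tissue, at 0.147 FPKM or less in 6 hearts and at 3.08 and 10.3 FPKM in P7 replicates 2 and 4. The part of these cell types in the higher Ckmt2, Slc6a8 and Gamt was not tested.

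The genes whose profile over the 8 hearts was most like that of a member were found by Pearson's r of log2(FPKM + 1), among 5652 other loci with 1 symbol and a mean of at least 10 FPKM. These values describe 8 hearts that share the 2 stages and the overall level of each library. Ckm was most like 2310042D19Rik (r = 0.997), Kctd10 (0.995), Otub1 (0.993), Eif2b5 (0.993) and Myo1c (0.990). For Ckb these were Rcan1 (0.993), Ict1 (0.987), Dctpp1 (0.984), Ppp2r1a (0.982) and Sephs2 (0.981). Closest to Ckmt2 came Col6a1 (0.990), Emp2 (0.989), Wipi1 (0.988), Plod1 (0.985) and Adprhl1 (0.985). Slc25a4 was nearest to Prdx1 (0.981), Mrpl20 (0.967), Timm10 (0.963), Ptpla (0.960) and Memo1 (0.959). No gene was named for more than 1 of the 4 members.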

How the data were processed

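RNA was isolated from 8 whole hearts, depleted of ribosomal RNA, made into libraries with the ScriptSeq kit and sequenced in pairs on an Illumina HiSeq instrument. Alignment to GRCm38, with Ensembl gene models, and summing over loci were done by a service provider of the authors, and the deposited values are FPKM. The aligner, and whether strand was used, are not given in the sources used here. The read totals that the study gives were not used here, and the counting error of each value is unknown, since FPKM carry no counts.

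The 43172 loci that reached 1 FPKM in any heart were kept. The deposited FPKM, plus a pseudocount of 1, were log2-transformed, which understates changes of low loci. Stages were compared with limma 3.58.1 in R 4.3.3 (lmFit, eBayes with trend), without covariates, and p-values were adjusted by Benjamini-Hochberg over all 43172 loci. Ratios were compared by exact permutation of the 8 hearts (scipy 1.17.1, 70 assignments, two-sided, smallest p 0.0286). GC correction subtracted each heart's lowess trend (span 0.3) on the GC content of the longest GENCODE M21 transcript, known for 85.9% of annotated loci tested. For a merged locus the GC content was averaged over its symbols. Positions count from 1.

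The 9 genes, the further list, the markers and the tests were chosen with earlier results of these data known. Named were all 9 genes, the called genes of the further list, its 3 highest loci not called, and the 5 most similar loci of 4 genes. Other genes named for context, such as Gatm, Myom1 and Prkaa2, were chosen after their values were seen. Of the further list, 2 loci count in the totals but are not reported here. The scripts were tested on simulated data.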

Additional observations from a re-analysis of the deposited data

Results flagged for a closer look

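Of 38 groups of 4 hearts examined for a heart far from the others, 2 held one, and chance alone would give about 1 in 20, or 1.9. Ckmt2 in P1 replicate 4 was at 71.3 FPKM, against 21.9 to 25.6 FPKM in the other P1 hearts, and its gap made up 0.924 of the range of the group. Atp2a2 in the same heart was at 1324 FPKM, against 1908 to 2023 FPKM, with a gap of 0.836 of the range. Both gaps exceeded Dixon's 95% value for 4 hearts.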

How the results depend on the processing

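The log2 fold changes of Ckm, Ckmt2, Slc6a8, Gamt and the Ak1 locus stayed above 0 and that of Slc25a5 below 0 in all 23 alternatives, while the calls did not hold throughout. Of the 9 genes 3 were called. The count was 0 with no filter, annotated-total scaling or GC correction, 1 with GC correction and median-ratio scaling, and 0 to 4 without 1 heart. It stayed at 3 with median-ratio scaling, but for Ckmt2, Gamt and Slc25a5, the last lower in P7. With quantile normalization it was also 3, for Ckmt2, Gamt and the Ak1 locus. Slc6a8 was not called in either of these fits. Of the further list 4 were called, against 0 with no filter, 2 with annotated-total scaling, GC correction or GC correction and median-ratio scaling, and 0 to 4 without 1 heart. Over all annotated loci 1462 of 17960 were called, against 231 of 39614 with no filter and 2573 of 12730 with at least 1 FPKM in every heart. It was 582 of 17977 with annotated-total scaling, 388 of 17960 with GC correction and 801 of 17930 with GC correction and median-ratio scaling. Of 17960, 2951 were called with quality weights, 941 without trend and 2521 with annotated loci only. Without 1 heart the count was 167 to 2835. Median-ratio scaling called 1331 higher and 691 lower, against 1390 and 72. The cause was not tested.

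Ckb turned to -0.05 with GC correction and median-ratio scaling. Slc25a4 turned to -0.23 with median-ratio scaling, -0.15 with annotated-total scaling, -0.05 with GC correction, -0.32 with both GC correction and median-ratio scaling, and -0.11 to 0.16 without 1 heart (-0.07 without P1 replicate 4). For the ratios, quantile normalization moved Slc25a4 to Slc25a5 to 0.70 and Ckmt2 to Ckm to 0.89, both then past the threshold. Without 1 heart the difference was -0.10 to 0.20 for Ckm to Ckb (-0.06 without P1 replicate 1, -0.07 without P7 replicate 1), 0.26 to 0.67 for Slc25a4 to Slc25a5 and 0.76 to 1.00 for Ckmt2 to Ckm. With 3 hearts against 4 the smallest exact permutation p is 0.0571, so these fits could not pass.

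The labels do not say whether same-numbered hearts of the 2 stages belong together. Their deviations correlated at -0.019, 0.122, -0.102 and -0.027, which shows no clear sign of a pairing. A pairing with a small effect on expression could not be seen this way. With the replicate block 2 of the 9 genes, 4 of the further list and 1052 of 17960 annotated loci were called. The replicate block with GC correction called 1, 1 and 377 and gave -0.05 for Slc25a4. No paired exact test of the ratios was run, since 4 pairs cannot go below 0.125.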
